A study of Homo sapiens with 2 samples.

Results

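The plus-strand cytosines of the human mitochondrial chromosome that lie outside the rRNA and mRNA genes were examined by RNA bisulfite sequencing (BS-Seq). They were chosen by position alone, as rows on the plus strand with a coverage of at least 5 in 12 intervals of the hg19 mitochondrial numbering that hold the tRNA genes, the control region and the strand opposite ND6. In MCF10A 256 of the 3146911 listed cytosines met this rule, and in MDA-MB-468 302 of 3489803 did. The methylation ratio of a cytosine is the number of its unconverted reads over all its reads, and the coverage is the sum of the unconverted and converted reads. A coverage of 10 or more was reached by 166 of these cytosines in MCF10A and by 218 in MDA-MB-468, and all ratios below refer to them unless a lower coverage is stated. Together the lines listed 321 positions, of which 237 were listed in both, 19 in MCF10A alone and 65 in MDA-MB-468 alone.

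MCF10A is a normal mammary epithelial cell line and MDA-MB-468 a line from breast cancer, and each was profiled as 1 library, with no treatment given in the labels. Total RNA of each line was enriched for poly(A)+ RNA and treated with sodium bisulfite at 60 degrees for 8 hours. Bisulfite turns unmodified cytosine into uracil and leaves m5C unconverted, so a ratio counts unconverted reads, whether they come from m5C or from incomplete conversion. There are no replicates, so intervals and tests on reads describe these libraries and not the variation between cultures.

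Mitochondrial DNA is transcribed on both strands into long precursors, in which the tRNAs stand between the rRNAs and mRNAs and mark where the precursors are cut. The control region holds the promoters and the start of replication of one strand. Most genes are read in the plus direction of the numbering, while ND6, a subunit of complex I, and several tRNAs are read in the minus direction, so plus-strand RNA opposite them is antisense. In mitochondrial tRNAs, NSUN2 is known to place m5C next to the variable loop and NSUN3 at the first anticodon base of tRNA-Met.

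The listed positions covered little of the tRNA genes themselves. Of the 12 intervals, 7 had no plus-strand cytosine at a coverage of 5 in either line, namely those of tRNA-Val, tRNA-Leu(UUR), tRNA-Ile and tRNA-Met, tRNA-Asp, tRNA-Lys, tRNA-Gly and tRNA-Arg. The files list no cytosine under a coverage of 5, so the first anticodon base of tRNA-Met and the variable loops of these tRNAs have no value here. Sense positions on a tRNA gene numbered 0 in MCF10A against 25 for MDA-MB-468. Positions opposite a gene numbered 147 and 153, and positions in the control region 109 and 124. By the strand listed with the counts, the set therefore lies mostly opposite genes and in the control region. Whether the reads came from RNA of that strand was not tested. The name of a tRNA below says only which gene the position lies on or opposite.

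The reference mitochondrial sequence used here differs in numbering from that of the files, so genes were located by sliding each reference transcript along the listed rows and taking the place where the rows fell on cytosines of their strand. This placed 26 of 37 mitochondrial genes, with 3845 of 3890 rows in them on a cytosine. Every gene left unplaced was a tRNA gene. The stretches below come from those GENCODE transcripts (GRCh37), written 5′ to 3′ in plus-strand orientation with the hg19 positions of the files beside them, and the capitals mark cytosines with a coverage of 10 or more in the line named. Those on tRNA-Ser(AGY) and opposite ND6 are shown as examples of ratios near 100%, those opposite tRNA-Glu and tRNA-Cys because the ratio changed from base to base, and that opposite tRNA-Pro as an example of intermediate ratios. No control region sequence is printed, since no transcript covers it.
tRNA-Ser(AGY), MDA-MB-468, chrM:12215-12242: CtCaCaagaaCtgCtaaCtCatgCCCCC
Opposite ND6, MCF10A, chrM:14357-14386: CaCCCaCagCaCCaatCCtaCCtCCatCgC
Opposite tRNA-Glu, MDA-MB-468, chrM:14679-14689: CtCgCaCggaC
Opposite tRNA-Cys, MDA-MB-468, chrM:5782-5804: CtgCttCttCgaatttgCaattC
Opposite tRNA-Pro, MCF10A, chrM:15988-16015: CaCCCaaagCtaagattCtaatttaaaC

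The MCF10A file held 76098976 counts and the MDA-MB-468 file 90960018. The kept sites of each line, exonic or mitochondrial cytosines whose coverage reached 10, had 1.99% of counts unconverted in MCF10A against 1.81% for MDA-MB-468. The listed members were shallow, with a median coverage of 12 (highest 63) in MCF10A and 14 (highest 117) in MDA-MB-468. Of neighbouring listed members within 10 nt, 57.0% of pairs in MCF10A against 56.8% for MDA-MB-468 had exactly the same coverage. Neighbouring cytosines can lie on the same reads, so the positions of one stretch are not independent measurements.

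Pooled over the 166 sites of MCF10A, 59.4% of 3221 counts were unconverted (95% Wilson interval 57.7% to 61.1%, counting error only). Over the 218 sites of MDA-MB-468 it was 47.7% of 6761 counts (46.5% to 48.9%). The median site ratio of MCF10A was 90% and that of MDA-MB-468 51.3%. This order depended on which sites were kept, since at the 138 sites kept in both lines the medians were 48.5% and 81.4%, and at a coverage minimum of 5 they were 77.8% and 79.6%. Ratios lay mostly near either end of the scale. In MCF10A 85 sites had a ratio of at least 90%, of which 63 were at 100%, and 27 a ratio of at most 10%. In MDA-MB-468 87 sites had at least 90%, of which 53 were at 100%, and 85 had at most 10%. At a coverage of 5 to 9 another 90 sites in MCF10A pooled to 59.1% and 84 in MDA-MB-468 to 72.5%.

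**Figure D1:**
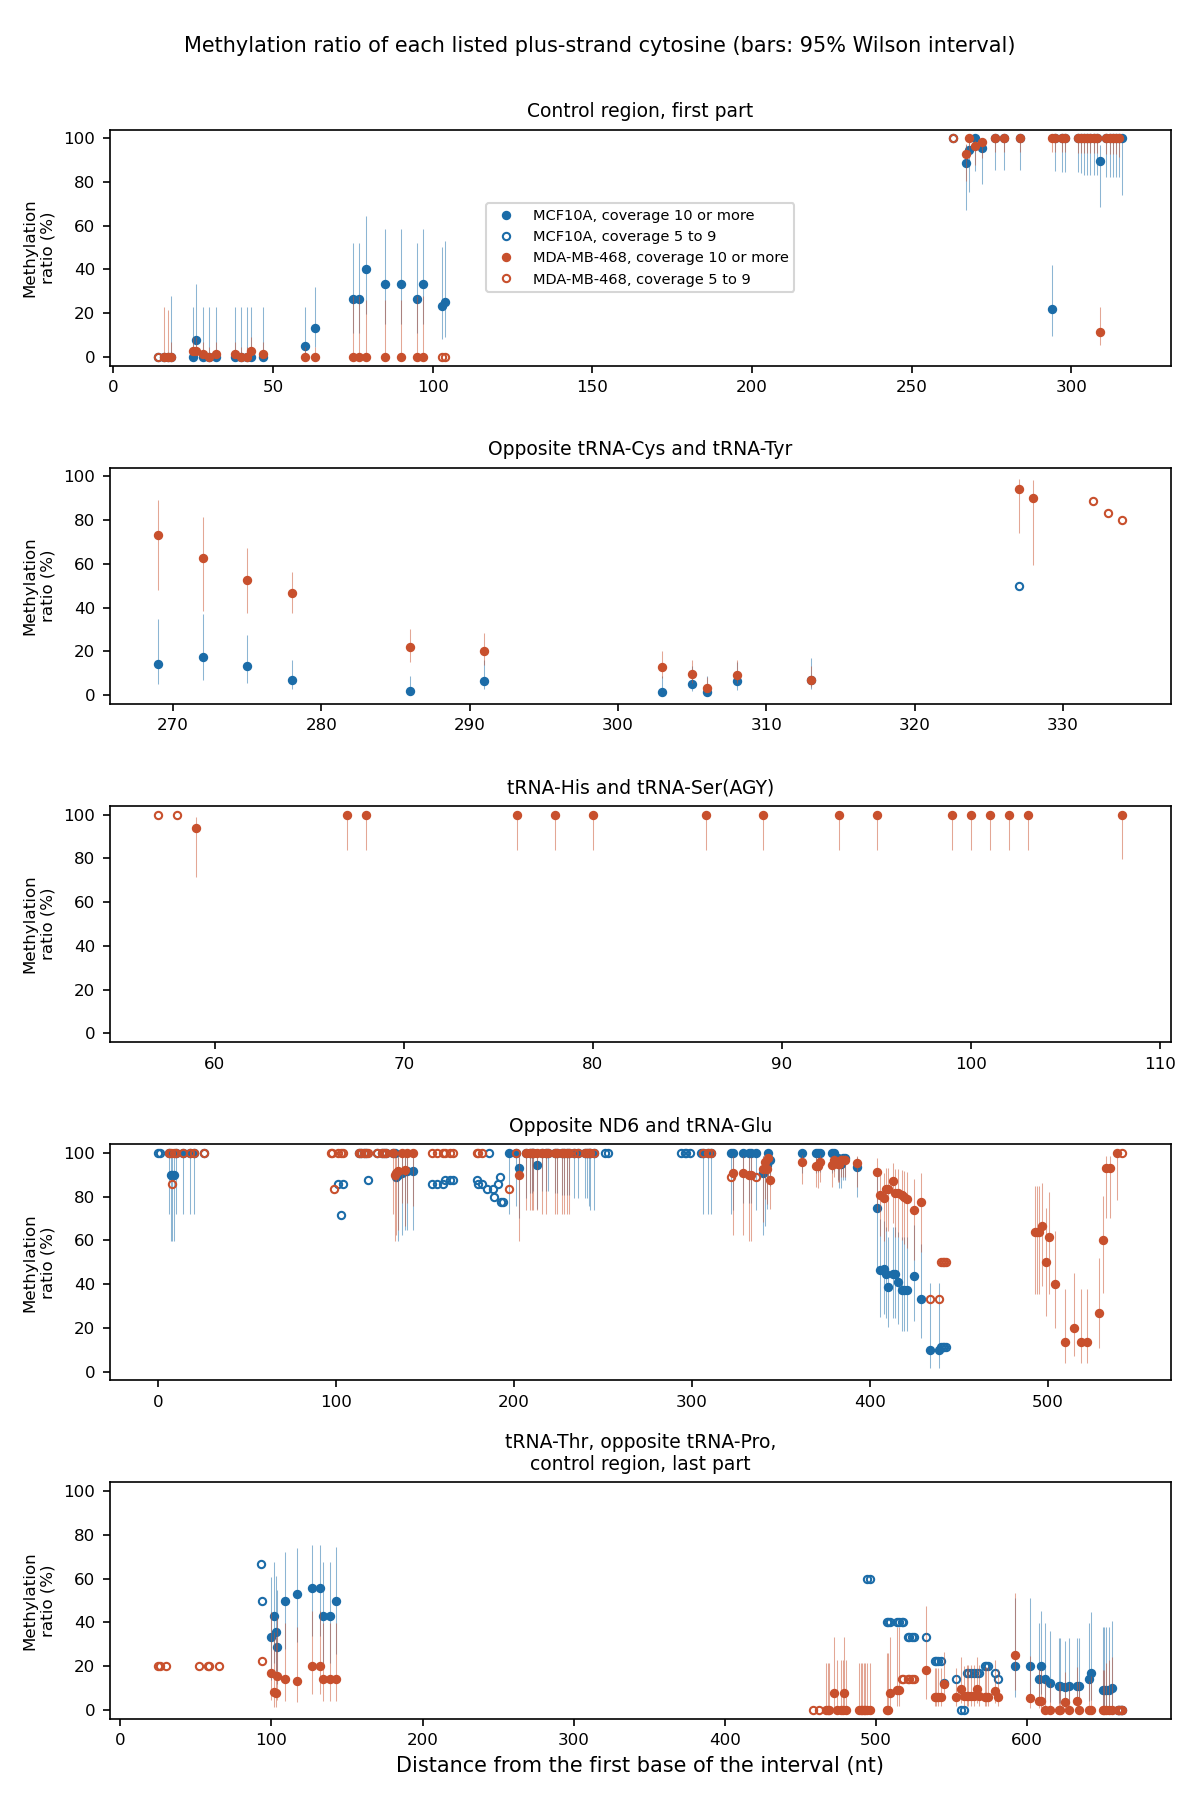
Methylation ratio (%) of every listed plus-strand cytosine against its distance in nt from the first base of its interval, with 1 panel for each of the 5 intervals that had any, MCF10A in blue and MDA-MB-468 in orange. Filled points have a coverage of 10 or more with their 95% Wilson interval, open points a coverage of 5 to 9; stretches near 0% and near 100% stand beside each other within the same interval.

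Opposite ND6, most cytosines with a coverage of 10 or more had high ratios. At least 90% was reached at 63 of 78 in MCF10A against 43 of 67 for MDA-MB-468. Of the 187 plus-strand cytosines in the ND6 transcript, 124 were listed in MCF10A against 121 for MDA-MB-468. The 78 of MCF10A with a coverage of 10 or more pooled to 88.6% (86.9% to 90.2%) with a median of 100%, and the 67 of MDA-MB-468 to 87.7% (86.0% to 89.3%) with a median of 92.3%. In MCF10A the highest ratio at the greatest depth was at position 14530, with 42 of 42 reads unconverted (91.6% to 100%). The same position had 60 of 62 in MDA-MB-468.

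Along the strand opposite ND6 the ratio changed within a short distance. The 12 positions from 14512 to 14543 had ratios of 93.8% to 100% in MCF10A against 94.1% to 96.8% for MDA-MB-468. At the next listed cytosine, position 14554, the ratio was 75.0% of 12 reads in MCF10A against 91.3% of 23 for MDA-MB-468. From there to position 14593 the 19 listed positions had a median of 37.5% in MCF10A against 79.2% for MDA-MB-468. In each line every ratio of this run was lower than those from 14512 to 14543, and MCF10A had the lower value at all 19 positions. The last of them, position 14593, had 1 of 9 reads unconverted in MCF10A against 3 of 6 for MDA-MB-468.

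The sequence shown opposite ND6 lies in a run of listed cytosines from 14329 to 14403. That run had 24 sites of sufficient coverage in MCF10A, pooled at 99.5%, and 14 in MDA-MB-468, pooled at 99.3%. By the base that follows the cytosine, high ratios were found before each of the 4 bases. In MCF10A the pooled ratio opposite ND6 was 86.9% where the next base was A, 90.6% where it was C and 91.4% where it was T, with median ratios of 100%, 98.8% and 100%. Where the next base was G, the 5 sites pooled to 69.6% with a median of 100%. In MDA-MB-468 the pooled ratios were 78.5% before A, 92.9% before C, 81.8% before G and 91.6% before T. Only 2 sites came before G there, 14560 and 14569, and both lie in the lower run from 14554 to 14593.

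Beyond ND6 the strand runs opposite tRNA-Glu, the tRNA that carries glutamate, and this stretch was listed in MDA-MB-468 only. Approaching it, position 14643 had 7 of 11 reads unconverted and position 14672, at the edge of ND6, 2 of 15. In the stretch opposite tRNA-Glu the cytosine at 14679 had 4 of 15 reads unconverted, 14681 had 9 of 15, 14683 had 14 of 15 and 14689 had 14 of 14 (78.5% to 100%). The ratio was thus low on either side of the gene boundary and high again from position 14683 on. The 5 sites opposite tRNA-Glu pooled to 74.3% (63.3% to 82.9%).

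On the plus strand, sense tRNA sequence reached a coverage of 10 only in MDA-MB-468. It lay at the junction of tRNA-His and tRNA-Ser(AGY), the tRNAs for histidine and for one set of serine codons. All 13 listed cytosines of tRNA-Ser(AGY), of 18 in the gene, were unconverted in every read, 255 of 255 counts. The pooled interval of 98.5% to 100% treats these counts as independent, although the cytosines can lie on the same reads. The 12 from 12215 to 12242 had 20 of 20 reads each (83.9% to 100% for a single one), and position 12247 had 15 of 15. These are bases 8 to 40 of the gene, which include a run of cytosines at bases 31 to 35. In tRNA-His, 5 cytosines at the 3′ end were listed. Position 12206, base 68 of the gene, had 20 of 20 reads unconverted (83.9% to 100%), and so had base 69, the last of the gene. Position 12198, base 60, had 15 of 16. No cytosine of this interval was converted in more than 1 read, from the 3′ end of tRNA-His to base 40 of tRNA-Ser(AGY). In MCF10A no position of this interval reached a coverage of 5.

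The only other sense tRNA positions on the plus strand were 7 in tRNA-Thr, the threonine tRNA, in MDA-MB-468. Each had a coverage of 5 with 1 read unconverted, a ratio of 20%. These 7 had the lowest coverage that the files list.

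The first part of the control region held a stretch of each kind. From position 15 to 48 ratios were low in both lines. In MCF10A the 11 sites of sufficient coverage had 1 unconverted read in 140 counts, and in MDA-MB-468 the 13 sites pooled to 1.18%, with ratios from 0% to 2.60%. At position 31, for example, 0 of 77 reads were unconverted in MDA-MB-468, which allows a ratio of up to 3.90% when the limit is set at 3 counts of the total. From position 264 to 317 nearly all reads were unconverted. There the 25 sites of MCF10A pooled to 95.1% (92.9% to 96.7%) and the 24 of MDA-MB-468 to 95.9% (94.7% to 96.9%), each with 20 sites at 100%. Position 277, which shared the greatest depth among fully unconverted cytosines of the interval with 280 and 285, had 23 of 23 reads in MCF10A against 59 of 59 for MDA-MB-468.

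Between them, from position 76 to 105, the lines had different values. In MCF10A the 9 cytosines had ratios of 23.1% to 40%, with 6 of 15 reads unconverted at position 80, and 7 of them were called as m5C sites. In MDA-MB-468 all 9 were at 0%, at coverages of 5 to 11, where a count of 0 of 11 at position 80 allows up to 27.3% by the same limit. No position of this run passed the test of the difference between lines.

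In the last part of the numbering the ratios were intermediate or low. Opposite tRNA-Pro, the proline tRNA, the 9 sites of MCF10A pooled to 45.3% (37.2% to 53.6%) with single ratios from 28.6% to 55.6%, and the 9 of MDA-MB-468 to 14.6% (9.46% to 21.9%) with ratios from 7.69% to 20%. The highest ratio of MCF10A was at positions 16015 and 16020, each with 10 of 18 reads unconverted against 3 of 15 in MDA-MB-468. These neighbouring cytosines can lie on the same reads and are not replicates, and no single one passed the test of the difference. In the control region, the 31 listed positions from 16395 to 16469 had coverages of 5 to 9 in MCF10A, with a pooled ratio of 23.6%. In MDA-MB-468, 25 of them reached a coverage of 10 and pooled to 6.95% (5.28% to 9.09%). From position 16480 to 16551, 19 sites pooled to 12.7% (9.22% to 17.2%) in MCF10A and 19 to 1.91% in MDA-MB-468. The highest ratio of MDA-MB-468 in this interval, at position 16480, was 3 of 12 reads.

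Opposite tRNA-Cys, the cysteine tRNA, both lines listed the same 11 cytosines, and this is where the members were deepest. In MDA-MB-468 the ratio was 73.3% of 15 reads at position 5782, 62.5% of 16 at 5785 and 52.5% of 40 at 5788. It was 46.7% of 107 reads at 5791 (37.6% to 56.1%), 21.9% of 114 at 5799, 20.2% of 114 at 5804 and 12.9% of 116 at 5816. The lowest value was 3.42% of 117 reads at 5819 (1.34% to 8.46%). The ratio was therefore lower at each successive cytosine of the printed stretch and stayed below 10% at the last 4. In MCF10A all 11 lay between 1.61% and 17.4%, the highest being 4 of 23 reads at 5785, and none was called.

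A few bases on, opposite tRNA-Tyr, the tyrosine tRNA, the ratios of MDA-MB-468 were high again. Position 5840 had 17 of 18 reads unconverted (74.2% to 99.0%) and 5841 had 9 of 10. In MCF10A only 5840 was listed, with 3 of 6 reads.

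Each site was tested against the unconverted share of all kept sites by a one-sided Fisher's exact test, with Benjamini-Hochberg adjustment over all sites kept in that line and an adjusted p below 0.05 as the threshold. Of the members, 119 of 166 (71.7%) were called as m5C sites in MCF10A, where 0.96% of all kept sites and 0.851% of nuclear sites were. In MDA-MB-468 119 of 218 (54.6%) were, where 0.84% of all kept sites and 0.742% of nuclear sites were. The share was 61.2% on the rest of the mitochondrial plus strand of MCF10A, and 48.2% there for MDA-MB-468. By interval, the called sites of MCF10A were 76 of 78 opposite ND6, 32 of 47 in the first part of the control region, 11 of 30 in the last interval and 0 of 11 in the interval of tRNA-Cys and tRNA-Tyr. Those 11 of the last interval lay between 15988 and 16031. In MDA-MB-468 they were 68 of 72 opposite ND6 and tRNA-Glu, 24 of 46, 0 of 71 and 11 of 13 in the same order, the last being 9 of 11 opposite tRNA-Cys and 2 of 2 opposite tRNA-Tyr, and 16 of 16 on tRNA-His and tRNA-Ser(AGY). Every called member in each line had another called member within 10 nt. Most members were called and they lie in short runs, and no such share was taken for other sites. It therefore describes spacing only.

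**Figure D2:**
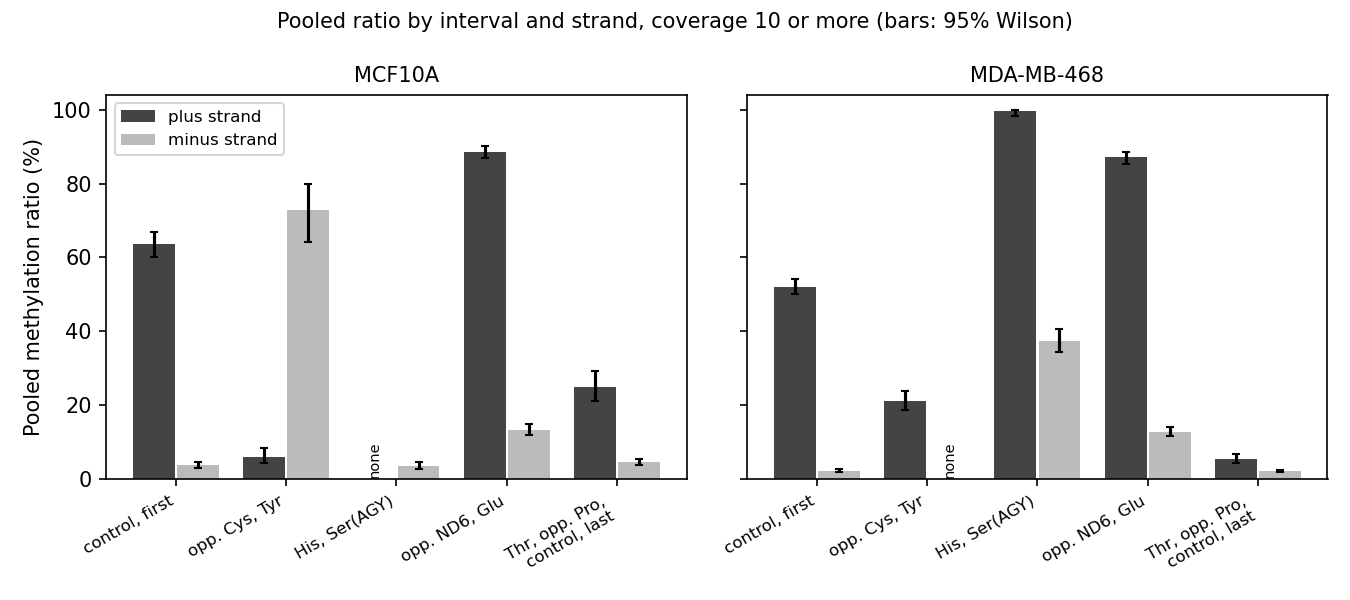
Pooled methylation ratio (%) of sites with a coverage of 10 or more on the plus strand (dark) and on the minus strand (light) of the same intervals, in MCF10A (left) and MDA-MB-468 (right), with 95% Wilson intervals that cover counting error only. Opposite ND6 and tRNA-Glu the plus strand reached 88.6% and 87.1% against 13.3% and 12.8% on the minus strand; "none" marks a strand with no such site.

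The minus strand of the same intervals was read mostly as converted. It pooled to 6.96% of 8607 counts in MCF10A against 5.51% of 19662 for MDA-MB-468. Where the plus strand of the first part of the control region had 63.6% and 52.1%, the minus strand had 3.70% and 2.31%. In the interval opposite tRNA-Cys and tRNA-Tyr the order was the other way in MCF10A. It had 6.03% on the plus strand and 72.7% of 121 counts at 10 sites on the minus strand, which is the sense strand of both tRNAs. In the interval of tRNA-His and tRNA-Ser(AGY) the minus strand of MDA-MB-468 pooled to 37.4%, and that of MCF10A, where the plus strand was not listed, to 3.49%. These shares are descriptions and were not tested against each other.

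**Figure D3:**
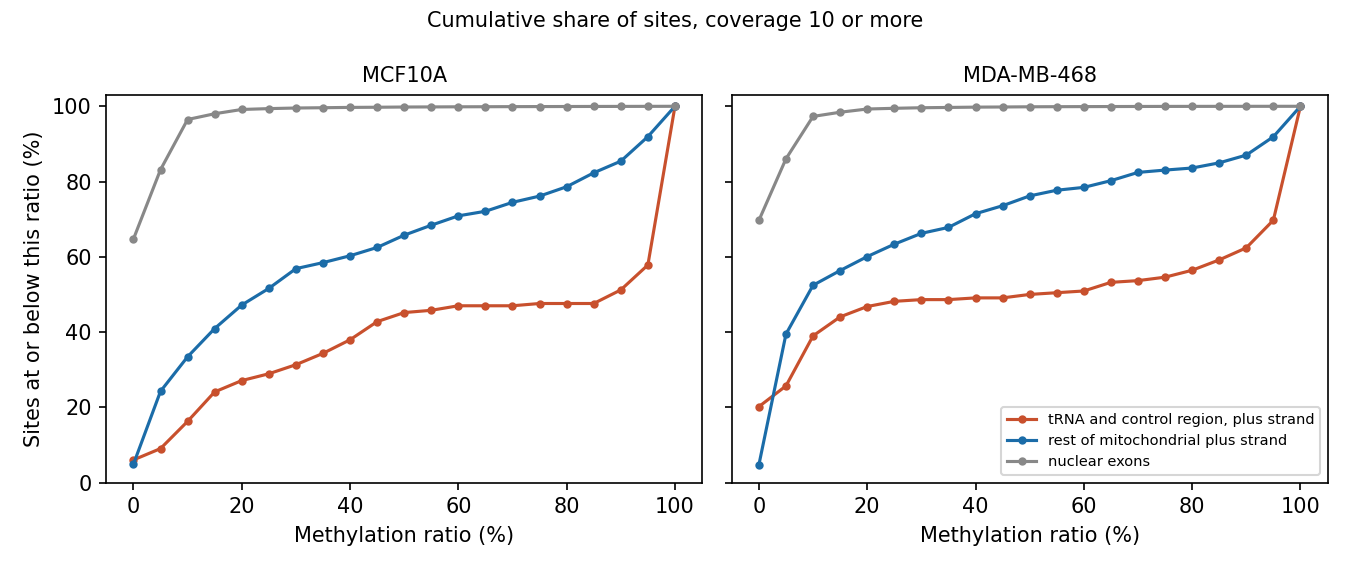
Share of sites (%) whose methylation ratio is at or below the value on the horizontal axis, for the tRNA and control region cytosines (orange), the rest of the mitochondrial plus strand (blue) and nuclear exons (grey), in MCF10A and MDA-MB-468 at a coverage of 10 or more. The orange curve is nearly flat from a ratio of 50% to 85% in MCF10A and from 25% to 60% in MDA-MB-468. Both climb at the right end, since 51.2% and 39.9% of these sites had a ratio of at least 90%.

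On the rest of the mitochondrial plus strand, which holds the rRNA and mRNA genes, 15.1% of the 1810 MCF10A sites and 13.7% of the 1457 MDA-MB-468 sites had a ratio of at least 90%, against 51.2% and 39.9% of the members. The median ratio there was 23.4% and 9.15%. Single genes spanned the whole range. ND3, a small subunit of complex I, pooled to 94.3% in MCF10A against 95.9% for MDA-MB-468, above the strand opposite ND6, while CO1, a catalytic subunit of complex IV, pooled to 3.70% and 3.71%. High ratios were thus not particular to the tRNA and control region intervals. Coverage differed too. Over all listed sites, from a coverage of 5, its median was 90.5 and 81.5 for CO1 and 8 in each line for ND3. The ND3 ratios above rest on the 31 and 20 sites with a coverage of 10 or more. The part of coverage in these ratios was not tested.

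Among the members themselves, deep sites were found at both ends. In MCF10A the 8 sites with a coverage of 50 or more, all opposite tRNA-Cys, pooled to 4.56%, whereas the 30 sites with a coverage of 20 to 49 pooled to 84.7%. In MDA-MB-468 the 51 sites with a coverage of 50 or more pooled to 49%, and 29 of them had a ratio of at least 90%.

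**Figure D4:**
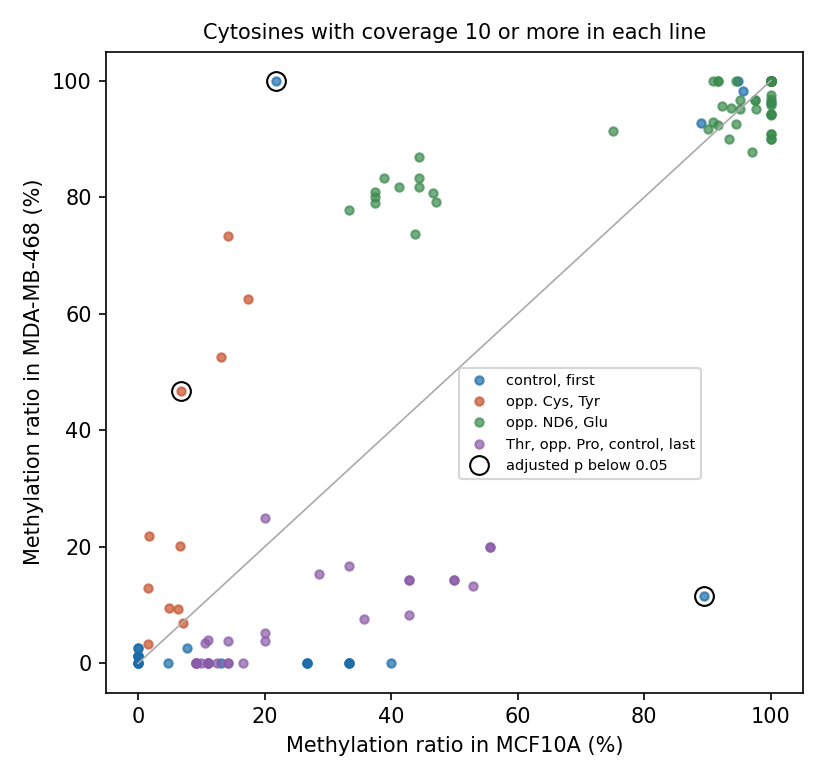
Methylation ratio (%) in MDA-MB-468 against that in MCF10A for the 138 cytosines with a coverage of 10 or more in each line, coloured by interval, with the line of equal ratios. Circles mark the 3 cytosines that passed the test between libraries, and points opposite ND6 crowd at the upper right.

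The lines were compared at the 138 members with a coverage of 10 or more in each. Over these the ratio pooled to 56.3% in MCF10A against 51.5% for MDA-MB-468, and 86 differed by no more than 10 percentage points. Across the sites Pearson's r was 0.88 and Spearman's rho 0.86, as a description only, since neighbouring sites share reads. A two-sided Fisher's exact test of the reads of each site, adjusted over all 812729 sites kept in both lines, compared the libraries. It called 1 member lower and 2 higher in MDA-MB-468, or 0.725% and 1.45% of the 138, where 0.0691% of all sites were lower and 0.0202% higher. On the rest of the mitochondrial plus strand 2.38% of 1346 sites were lower and 0% higher.

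The 3 called cytosines were single positions, and 310 is named here although it lies outside the rule for named sites, having been chosen after its values were seen. At 295 in the control region 5 of 23 reads were unconverted in MCF10A against 58 of 58 for MDA-MB-468 (adjusted p = 4.13e-10, Fisher's exact test). At 310, in a run of listed cytosines from 303 to 310, 17 of 19 were unconverted in MCF10A against 6 of 52 for MDA-MB-468 (adjusted p = 3.8e-06, Fisher's exact test). Both lie in the stretch from 264 to 317, and every other cytosine of it had a ratio of at least 88.9% in each line. Whether the RNA of a line carries another base than the reference at 295 or 310 was not tested, so these ratios cannot be read as a difference in methylation. At 5791 opposite tRNA-Cys 4 of 59 were unconverted in MCF10A against 50 of 107 for MDA-MB-468 (adjusted p = 7.77e-05, Fisher's exact test).

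The members with the largest differences at a coverage of 20 in each line were 295, with 78.3 percentage points, followed by 4 cytosines opposite tRNA-Cys. These were 5791 with 39.9, 5788 with 39.3, 5799 with 20.3 and 5804 with 13.5 points, all higher in MDA-MB-468, and of the 4 only 5791 passed the test. Over all 138 members, 60 had the lower value in MDA-MB-468, 44 the higher and 34 the same. The rest of the mitochondrial plus strand pooled to 4.11% over 1457 sites in MDA-MB-468 against 11.4% over 1810 in MCF10A. These are not the same sites, and genes there differed in direction. ND1 pooled to 59.1% in MCF10A against 26.8% for MDA-MB-468, and ND5 to 41.4% against 53.4%. By interval, 10 of the 11 shared cytosines opposite tRNA-Cys had the higher value in MDA-MB-468, and 29 of 30 in the last interval the lower value. Opposite ND6, 23 of 53 had the higher value, 18 the lower and 12 the same, and none passed the threshold. At an unadjusted p below 0.05, 19 of the 138 were higher and 4 lower in MDA-MB-468, where 0.4% of all sites kept in both lines were higher and 0.743% lower. Opposite ND6 11 were higher and 0 lower, all of them in the run from 14554 to 14593, whose neighbouring cytosines can lie on the same reads.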

How the data were processed

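RNA BS-Seq of 2 cell lines, 1 library each, was analysed. The authors trimmed the reads with Trim Galore, aligned them to hg19 with MeRanTK and deposited the raw counts of unconverted and converted reads per cytosine and strand, with no normalization and from a coverage of 5. The submitters' processing notes also name Bismark. How the libraries were made to keep strand is not given in the sources used here, and the structure filter of the methods was not applied. Tests covered every mitochondrial cytosine, and every cytosine on a same-strand exon of a basic transcript (GENCODE release 44), whose coverage reached 10. These were 1584002 in MCF10A against 1271253 for MDA-MB-468. The fewest unconverted reads called at a coverage of 10 were 4 in each line, so ratios under 40% could not be called there. Mitochondrial genes were placed by their cytosine pattern where the best place beat the next by a score of at least 4 (1 for each row on a cytosine, less 3 for each other row). No coordinate was converted. Positions are therefore those of the files, and gene limits those of the match.

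Sites were named by rule: the highest of each interval and line, those of extreme ratio at a coverage of 100 or more, and the largest differences at a coverage of 20 in each line. Runs hold listed positions no more than 10 nt apart. The members, lists and tests were chosen with earlier results of these data known. The code was tested on simulated counts. It ran on Python 3.11.15, numpy 2.4.6, scipy 1.17.1, pandas 2.3.3 and numba 0.67.0. Alternatives changed the coverage minimum, background, site set, test, weighting, thinning and adjustment. Intervals are 95% Wilson intervals for counting error only, and reads without molecular identifiers are not independent molecules. Those of pooled ratios are too narrow where cytosines share reads.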

Additional observations from a re-analysis of the deposited data

How the results depend on the processing

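No paired analysis was possible because each line has 1 library, and for the same reason no replicate could be left out. The number of called members stayed within 1.5 times of 119 in each line except at a coverage minimum of 20, which left 38 sites with 25 called in MCF10A, and 117 with 71 called in MDA-MB-468, fewer because fewer sites were tested. A background of mitochondrial sites alone gave 90 and 113 calls. At a minimum of 20 the pooled ratio was 56.8% in MCF10A and the median 97.3%, and for MDA-MB-468 they were 49% and 81.8%. At a minimum of 5 the pooled ratio of MDA-MB-468 was 49.6%. At sites kept in both lines the pooled ratios were 56.3% and 51.5%, and the medians 48.5% and 81.4%, the order of the medians being reversed. The mean over sites was 61.8% for MCF10A and 49.7% for MDA-MB-468, and without the 10 deepest sites the pooled ratios were 68.1% and 54.2%. By interval, a minimum of 20 gave 79.4% (MCF10A) and 54.4% for MDA-MB-468 in the first part of the control region. It gave 98.1% and 92.5% opposite ND6. In MDA-MB-468 it gave 17.6% opposite tRNA-Cys and 100% on tRNA-His and tRNA-Ser(AGY). No position opposite tRNA-Glu or tRNA-Tyr reached that coverage. The lower run of MCF10A from 14554 to 14593, with a highest coverage of 18, was also left out. The last interval of MCF10A had no site left at that minimum.

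Between lines, positions 295 and 5791 passed under every alternative run. Position 310 did not at a minimum of 20, which its 19 reads in MCF10A do not reach, nor after thinning to the lower coverage, so 0 members were then lower. Over the shared sites of the mitochondrial plus strand, the odds of an unconverted read in MCF10A were 2.29 times those in MDA-MB-468. Relative to this shift 7 members were higher, and 6 with adjustment over mitochondrial sites only. The additional ones were 5782, 5788, 5799 and 14560 in both, with 5804 under the shift alone. At a coverage of 10 a site needed 4 unconverted reads to be called, so ratios below that were not detectable there.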
